A study of Mus musculus with 2 samples.

Results

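Far intergenic regions are stretches of open chromatin that lie outside every annotated gene and more than 100 kb from the transcription start site (TSS) of any protein-coding gene. They were taken from DNase-seq, which reads out where the nuclease DNase I cuts chromatin more often than its surroundings. Of 125221 open regions on chromosomes 1 to 19 that had a peak in both libraries, 7246 (5.79%) met this position rule, which used no measured value of the peaks. Over the autosomes, X and Y there were 127806 shared regions. Coordinates are those of mm10, gene models those of GENCODE release M21, and a shared region is the merged span of overlapping peaks of both lists.

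Both libraries came from MN1, an immortalized cell line from mouse strain B6NCrl, whose tissue, age and sex the labels do not give. The cells had been treated with 10 nM methyltrienolone, a synthetic androgen that activates the androgen receptor. The libraries form 1 group of 2 biological replicates, which the labels list as separate biosamples of the line, and no untreated library was analysed here, so every value is a level in treated cells and not a response to the androgen. The lists held 189648 and 170745 distinct peaks in replicates 1 and 2, their sequencing depth is unknown, and no test between conditions was possible.

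An enhancer is a stretch of DNA that binds transcription factors and raises transcription from a promoter that can lie far away on the same chromosome. Many genes that control development are flanked by long stretches without other genes, called gene deserts, which hold enhancers that act over such distances, often in a single tissue. CTCF is a DNA-binding protein that stops the extrusion of chromatin loops and so marks their ends, while AP-1, NFI, EBF and RFX are families of factors bound at many enhancers. The androgen receptor binds the androgen response element (ARE), a pair of inverted repeats that the glucocorticoid receptor also recognizes.

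To show what these regions look like, 6 of them are printed, 1 for each of 6 motifs. Each has the fewest mismatches to its motif and, among regions equal in that, the highest score rank over both replicates. The motifs were NFI (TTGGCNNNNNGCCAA), RFX (GTTGCCATGGCAAC), ARE (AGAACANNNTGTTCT), EBF (TCCCNNGGGA), AP-1 (TGAGTCA) and that of CTCF. All 6 matches are without a mismatch. Each line gives the 150 bp around the centre of the region on the forward strand of mm10, 5′ to 3′, and the capitals mark 1 match to the motif. The AP-1 region also holds TGACTCA, the same site on the other strand, left in lower case.
CTCF region near Adgrg6, chr10:14391106-14391255: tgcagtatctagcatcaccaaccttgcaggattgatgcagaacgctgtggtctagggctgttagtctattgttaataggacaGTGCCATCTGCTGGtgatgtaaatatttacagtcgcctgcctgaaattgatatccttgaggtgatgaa
NFI region near Tcerg1l, chr7:137924886-137925035: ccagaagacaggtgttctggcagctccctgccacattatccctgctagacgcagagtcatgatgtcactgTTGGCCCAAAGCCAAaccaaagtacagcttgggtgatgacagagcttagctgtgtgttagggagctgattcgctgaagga
AP-1 region near Akr1e1, chr13:4771536-4771685: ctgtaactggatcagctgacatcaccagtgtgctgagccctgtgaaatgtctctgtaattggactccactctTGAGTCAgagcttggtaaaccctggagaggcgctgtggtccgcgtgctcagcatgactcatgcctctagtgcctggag
EBF region near Prex1, chr2:166460056-166460205: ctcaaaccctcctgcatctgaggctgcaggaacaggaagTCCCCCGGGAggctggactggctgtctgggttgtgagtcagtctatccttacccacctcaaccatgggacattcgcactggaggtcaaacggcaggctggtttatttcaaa
RFX region near Myo3a, chr2:21918406-21918555: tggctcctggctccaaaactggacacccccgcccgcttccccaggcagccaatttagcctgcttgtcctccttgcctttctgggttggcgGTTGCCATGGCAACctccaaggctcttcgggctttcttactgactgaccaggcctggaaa
ARE region near Dusp10, chr1:183898196-183898345: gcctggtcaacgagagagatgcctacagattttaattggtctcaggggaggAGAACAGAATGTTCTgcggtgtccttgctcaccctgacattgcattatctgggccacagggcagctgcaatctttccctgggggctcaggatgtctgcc

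The region near Dusp10, which encodes a phosphatase that turns off stress-activated kinases, lay 115031 bp from that gene. It had a score of 130 in replicate 1 and 118 in replicate 2, on a scale of 1 to 150 that the authors deposited. The AP-1 region scored 142 and 132 and the EBF region 140 and 125. The region with the CTCF motif scored 106 in both replicates, that with NFI 103 and 106, and that with RFX 99 and 65. Among these 6 regions the RFX region near Myo3a, a myosin gene of sensory hair cells, was the weakest in both replicates. Score took part in picking each region, from 1081 regions with an exact AP-1 site, 146 with EBF and 5 with RFX. These 6 scores therefore do not compare the motifs. Over all regions with AP-1, EBF or RFX the median scores were 61, 61 and 56 in replicate 1. They were 49, 43 and 43 in replicate 2.

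The highest far intergenic regions are shown too. None of the 12 highest held any of those 6 motifs, and neither did 70.0% of all far intergenic regions. The highest were ranked by the lower of the percentiles of score that a region reached in the peak lists of both replicates.
Highest region 1, near Myt1l, chr12:29291096-29291245: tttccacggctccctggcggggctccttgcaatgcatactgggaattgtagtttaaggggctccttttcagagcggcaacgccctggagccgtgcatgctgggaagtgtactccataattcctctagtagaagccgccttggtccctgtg
Highest region 2, near Pcmtd1, chr1:7398006-7398155: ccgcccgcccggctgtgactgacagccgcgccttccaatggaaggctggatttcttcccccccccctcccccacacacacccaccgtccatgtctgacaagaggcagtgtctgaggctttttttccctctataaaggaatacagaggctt
Highest region 3, near Zfat, chr15:68363416-68363565: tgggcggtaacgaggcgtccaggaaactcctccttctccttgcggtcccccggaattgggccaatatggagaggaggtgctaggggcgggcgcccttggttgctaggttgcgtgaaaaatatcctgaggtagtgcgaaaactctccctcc

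The highest region lay 237213 bp from Myt1l, a gene for a zinc finger factor of neurons, and scored 149 and 143. The second scored 147 and 139, and its centre was 212 bp from the start of the long noncoding RNA gene Gm26901. The third scored 145 and 148 and lay 315 bp from the start of Gm20732, also a long noncoding RNA gene. The fourth, at chr17:47139876-47140025, scored 145 and 141 and lay 924 bp from the annotated start of Trerf1. GENCODE M21 classes Trerf1 as a processed transcript, whereas RefSeq lists it as a protein-coding gene, so this region is far from a coding gene only by the gene models of the rule. The other 8 of the 12 scored from 144 to 149 in replicate 1 and from 136 to 142 in replicate 2, and their nearest coding genes were Tbx19, Unc5b, Slc30a5, Trib1, Zfp608, Irf2bp2, Gm597 and Lrrn3. Unc5b encodes a receptor for the axon guidance cue netrin, and Trib1 a pseudokinase that promotes the breakdown of transcription factors.

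Far intergenic sequence was sparsely populated. It made up 636 Mb, which is 26.5% of the 2396 Mb of autosomal sequence outside assembly gaps, and held 11.4 shared regions per Mb. Near intergenic sequence, outside genes and 2.5 to 100 kb from a coding TSS, made up 562 Mb and held 27415 shared regions, or 48.8 per Mb. The ratio of both densities was 0.233 (95% Wilson interval 0.227 to 0.240), and it was 0.283 from the peaks of replicate 1 alone and 0.261 from those of replicate 2 alone. Intervals here and below cover counting error only, since neighbouring regions are not independent.

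The density was lower in each more distant class, with no step at the limit of 100 kb. It was 65.8 shared regions per Mb at 2.5 to 10 kb from a coding TSS, 46.9 at 25 to 50 kb and 34.5 at 50 to 90 kb. Just outside the limit, at 90 to 100 kb, 682 regions gave 27.0 per Mb, and just inside it, at 100 to 110 kb, 546 gave 23.6 per Mb. Further out the density was 14.3 per Mb at 200 to 300 kb, 4.68 per Mb at 500 to 1000 kb and 2.18 per Mb beyond 1000 kb. The peaks of each replicate alone followed the same order. A place where no peak was called may still be accessible, and reads cannot be placed uniquely in some repeats. The part of either in these densities was not tested.

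The median far intergenic region lay 199608 bp from a coding TSS. Of the 7246 regions, 3611 (49.8%) lay over 200 kb away, 811 (11.2%) over 500 kb and 144 (1.99%) over 1 Mb. The 5 farthest lay between Tenm3 and Aga on chromosome 8. The farthest, at chr8:51205736-51205885, was 2305916 bp from Aga, a lysosomal enzyme gene, and scored 81 in replicate 1 and 74 in replicate 2. The other 4 had scores of 32, 72, 56 and 51 in replicate 1 and 32, 53, 40 and 45 in replicate 2. As percentiles these 5 ran from 22.1 to 71.7 in replicate 1 and from 21.5 to 71.0 in replicate 2. They thus lay on both sides of the far intergenic medians of 51.5 and 45.4. Of the 5, 1 held any of the 6 motifs, an AP-1 site, while 70.0% of all far intergenic regions held none.

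Of all autosomes, chromosome 13 had the highest density of far intergenic regions, 24.3 per Mb, against a median of 11 and a lowest value of 7.55 on chromosome 16. It held 746 far intergenic regions, which was 12.6% of its shared regions. Its near intergenic density, 48.8 per Mb, was the median of all autosomes. The far to near ratio was therefore 0.498 on chromosome 13, against a median of 0.240. Both replicates had this order: chromosome 13 held 40.3 peaks per Mb of far intergenic sequence in replicate 1 and 33.5 in replicate 2, against at most 31.6 and 22.5 on any other autosome. At the other end, 2.11% of the shared regions of chromosome 11 were far intergenic, and its ratio was 0.109.

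Far intergenic regions scored lower than the other distal classes. The median score was 54 in replicate 1 and 47 in replicate 2, against 66 and 59 in near intergenic regions and 63 and 54 in genic distal regions, which lie inside a gene and over 2.5 kb from any TSS. As percentiles of each replicate's whole list the medians were 51.5 and 45.4 (mean 48.4 ± 4.27, SD, n = 2), against 60.3 ± 2.08 in near intergenic and 56.6 ± 4.04 in genic distal regions. Within each replicate the far intergenic median was the lowest of the 3 classes. The highest decile of each list took in 5.69% of far intergenic regions in replicate 1 and 3.75% in replicate 2. Those shares were 8.87% and 7.60% for near intergenic regions, and 7.60% and 5.21% for genic distal ones. In bulk cells a low score from a site open in few cells cannot be told apart from one from a site cut less often in each cell.

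The score was also lower farther out, down to 1 Mb. The median percentile was 56.1 in replicate 1 and 53.7 in replicate 2 at 100 to 110 kb, 50.5 and 45.4 at 200 to 300 kb, and 43.9 and 36.9 at 500 to 1000 kb. Beyond 1000 kb, with 144 regions, it was 45.0 and 45.4.

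A far intergenic peak was less often matched by a peak of the other library. Of 13003 far intergenic peaks in replicate 1, 57.2% overlapped a peak of replicate 2, and of 10858 in replicate 2, 68.8% overlapped a peak of replicate 1 (mean 63.0% ± 8.17, SD, n = 2). Near intergenic peaks had 69.1% and 76.7%, and genic distal peaks 64.1% and 76.1%. The share followed the score. It was 20.8% in the lowest decile of the list of replicate 1 and 98.8% in the highest, and 29.2% and 99.3% in replicate 2. At the same decile of score the classes were closer: in decile 5 of replicate 1 it was 72.6% of far intergenic and 69.5% of near intergenic peaks. Across the regions, the scores of both replicates had a Spearman correlation of 0.779 in far intergenic, 0.848 in near intergenic and 0.799 in genic distal regions, given as a description over regions that share their libraries.

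In sequence, far intergenic regions were poorer in G and C than other distal regions. The median GC content was 48.0% in their central 150 bp and 43.3% in the flank 1 kb downstream, against 50.7% and 46.7% in both other classes. A central window held 5 or more CpG dinucleotides in 9.78% of far intergenic, 16.5% of near intergenic and 10.5% of genic distal regions. At least 50% of the window was masked as repeats in 3.88% of far intergenic regions, against 17.7% of their own flanks. Most regions were narrow. The hotspot around a far intergenic region, the wider domain in the authors' hotspot list, had a median width of 363 bp in replicate 1 and 319 bp in replicate 2. It exceeded 1 kb for 12.2% of the 7152 regions with a hotspot in replicate 1 and 10.3% of the 7117 in replicate 2.

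AP-1 sites were the most frequent of the 6 motifs in far intergenic regions, and at the mismatches allowed the CTCF motif had the highest ratio to the flanks. The AP-1 site was present in 1081 regions, or 14.9% (14.1 to 15.8), against 2.84% of flanks. The CTCF motif was present in 413, or 5.70% (5.19 to 6.26), against 0.166% of flanks, a ratio of 34.4. With 1 mismatch fewer the ratio was 22.3 for CTCF (67 regions against 3 flanks), 26.0 for RFX (26 against 1) and 20 for NFI (20 against 1), so that RFX then led on few sites. Shares and ratios for the others were 4.33% and 13.1 for NFI, 2.01% and 12.2 for EBF, 0.980% and 11.8 for RFX, and 3.95% and 3.33 for the ARE. The motifs were sought on both strands, with up to 1 mismatch for CTCF, NFI and NRF1, up to 2 for RFX, REST and the ARE and none for the others. The letters of no motif lie wholly within those of another, but a region can hold several: that printed for CTCF also holds an ARE, and that for EBF also an AP-1 site.

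Of 20 motifs searched, 11 were at least 2 times as frequent in far intergenic regions as in their flanks. The other 5 were the cyclic AMP element TGACGTCA (ratio 8.75, with 35 regions against 4 flanks), the SP/KLF site GGGCGGGG (2.80), the NEUROD site CAGATGG (2.55), the E-box CAGCTG of ASCL factors (2.21) and REST (2.33, from 7 regions against 3 flanks). With the flank 1 kb upstream instead, the ratio was 6.64 for EBF, 17.8 for RFX, 2.92 for the cyclic AMP element, 1.40 for REST and 2.00 for the ETS site. Ratios were 1.40 for the homeodomain site TAATTA, 1.20 for the GATA site AGATAA and 1.67 for NRF1 (GCGCATGCGC). They were 1.17 for NFY (CCAATCA), 1.02 for RUNX (TGTGGTT) and 1.00 for ETS (CCGGAAGT). They were 0.928 for TEAD (ACATTCC), 0.863 for SOX (ACAATGG) and 0.722 for the POU octamer (ATGCAAAT). A motif match describes the letters of a window and does not show binding. Of the far intergenic regions, 70.0% held none of the 6 motifs, against 67.5% of near intergenic and 68.6% of genic distal regions.

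**Figure D1:**
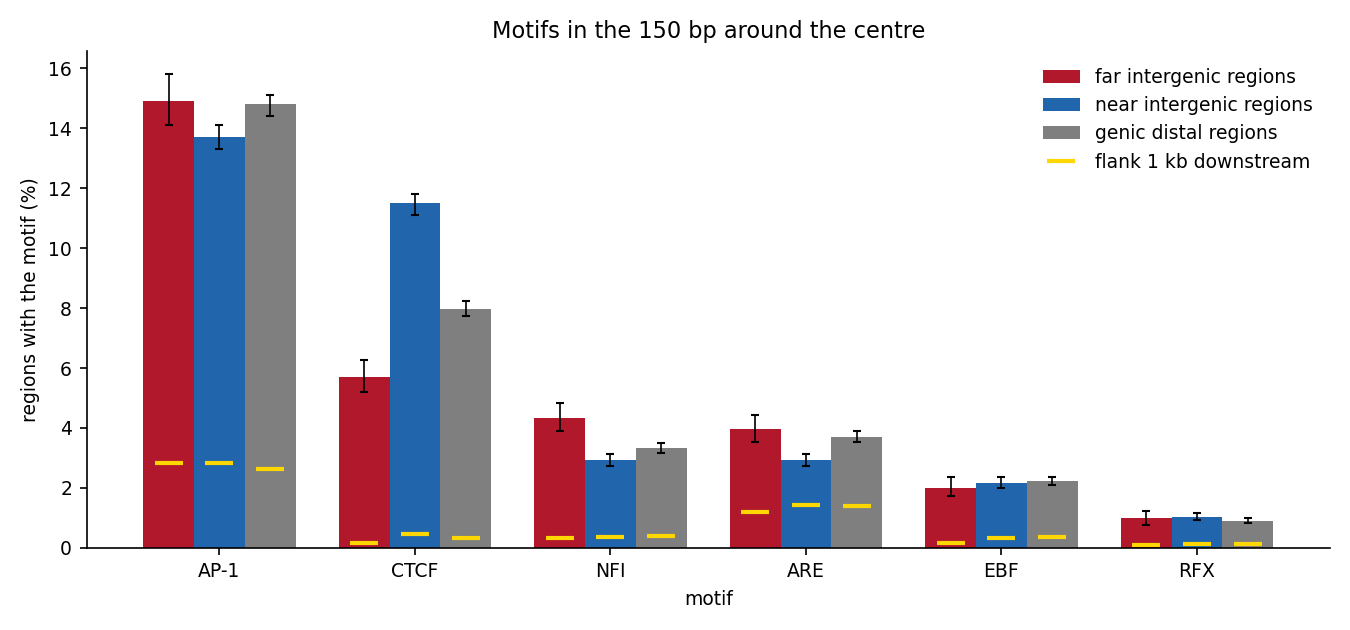
Bars give the share of far intergenic, near intergenic and genic distal regions with each motif in the central 150 bp, with 95% Wilson intervals, and gold marks the share in the flank. CTCF was in 5.70% of far intergenic, 11.5% of near intergenic and 7.98% of genic distal regions, while AP-1 was in 14.9%, 13.7% and 14.8%.

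The CTCF motif was less frequent in far intergenic regions than in the other classes, and AP-1 was not. CTCF was in 5.70% of far intergenic regions (5.19 to 6.26), 11.5% of near intergenic regions (11.1 to 11.8) and 7.98% of genic distal regions (7.73 to 8.24). NFI had the other order, with 4.33% (3.89 to 4.83) in far intergenic, 2.92% (2.73 to 3.13) in near intergenic and 3.33% (3.17 to 3.51) in genic distal regions. The ARE was in 3.95% (3.52 to 4.42), 2.94% (2.74 to 3.14) and 3.71% (3.53 to 3.89), so that its far intergenic interval overlapped that of genic distal regions. EBF and RFX differed little, with 2.01%, 2.17% and 2.23% for EBF and 0.980%, 1.03% and 0.901% for RFX.

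Ordered by distance, CTCF became rarer from the genes outwards without a step at 100 kb. Its share was 13.1% at 2.5 to 10 kb, 13.3% at 10 to 25 kb, 10.2% at 25 to 50 kb, 8.03% at 50 to 90 kb and 7.62% at 90 to 100 kb. It was 7.51% at 100 to 110 kb, 4.87% at 200 to 300 kb and 4.05% at 500 to 1000 kb. AP-1 stayed between 13.1% and 15.7% in all 12 distance classes. NFI was at 2.59% in the nearest class and 4.65% at 500 to 1000 kb, and the ARE was at 3.0% and 5.40%. Beyond 1000 kb these shares rest on 6 regions with CTCF, 7 with NFI and 5 with an ARE. GC content moved with distance too, with a median of 51.3% in regions at 2.5 to 10 kb and 44.0% at 500 to 1000 kb, and CTCF in the flanks was at 0.480% and 0.30%. The part of base composition in the shares was not tested.

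**Figure D2:**
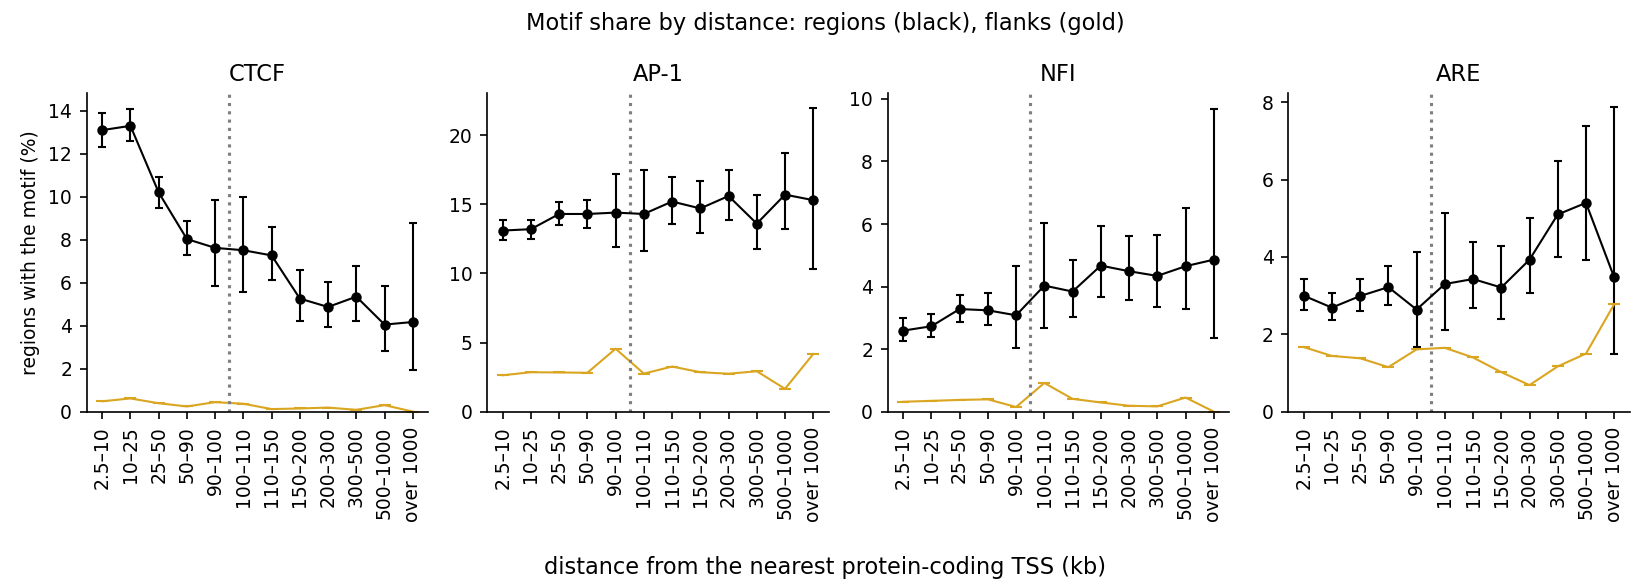
Share of intergenic shared regions with the CTCF, AP-1, NFI or ARE motif (black, with 95% Wilson intervals) and of their flanks (gold) by distance from the nearest protein-coding TSS, with a dotted line at 100 kb. CTCF was at 13.1% in the nearest class and 4.05% at 500 to 1000 kb, while AP-1 was at 13.1% and 15.7%.

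Of the 286 far intergenic regions with an ARE, 4 had no mismatch, 54 had 1 and 228 had 2, against 0, 5 and 81 of the flanks. The 4 exact sites were named after their values were seen. The region near Dusp10 scored 130 and 118. That near Cd47, a surface protein that restrains engulfment, scored 53 and 54 and held AGAACAATTTGTTCT. That near Dab2, an endocytic adaptor, scored 36 and 59 with AGAACAGAGTGTTCT, and that near Csmd3 32 and 47 with AGAACACTGTGTTCT. The exact sites thus ranged from the upper to the lower part of the score scale.

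The motif in a region went with which replicate ranked it higher. Over all far intergenic regions, 40.6% (39.5 to 41.7) had the higher percentile in replicate 2. Of those with the CTCF motif it was 86.4% (82.8 to 89.4), and their median percentile was 41.4 in replicate 1 and 56.9 in replicate 2. Regions with an ARE had 76.6% (71.3 to 81.1), with medians of 41.4 and 54.8. EBF regions had the opposite order, with 17.8% (12.5 to 24.8) higher in replicate 2 and medians of 57.8 and 40. AP-1 regions had 30.9% (28.2 to 33.7), RFX regions 28.2% and NFI regions 39.5%. CTCF and ARE regions were therefore ranked higher in replicate 2, and EBF, RFX and AP-1 regions in replicate 1.

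The same directions held in the other classes, so they were not particular to far intergenic regions. With CTCF, 78.5% of near intergenic and 80.2% of genic distal regions were higher in replicate 2, and with EBF 27.4% and 17.0%. Far intergenic peaks found in a single list gave further values of the same libraries. Of 5218 peaks of replicate 1 without a peak or hotspot in replicate 2, 0.498% held CTCF, 1.46% an ARE, 3.18% EBF and 13.2% AP-1. Of 2970 peaks of replicate 2 without a counterpart in replicate 1, 4.44% held CTCF, 4.14% an ARE, 0.572% EBF and 5.89% AP-1. With a single library of each culture, a difference between the cultures and a difference between the libraries cannot be told apart.

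**Figure D3:**
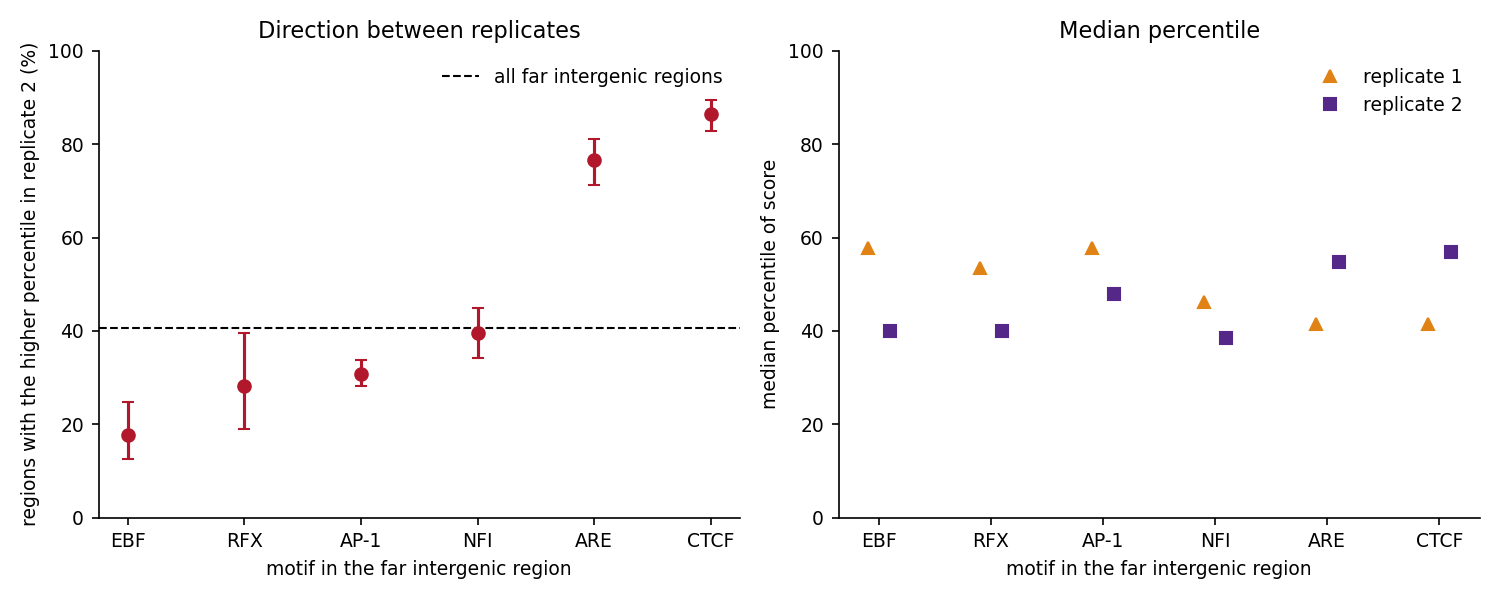
Left, the share of far intergenic regions with each motif whose percentile of score was higher in replicate 2 than in replicate 1, with 95% Wilson intervals and a dashed line at 40.6% for all far intergenic regions. Right, the median percentile in each replicate, which for CTCF was 41.4 in replicate 1 and 56.9 in replicate 2.

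Within a replicate pair, the 6 motifs also differed in how they followed the score. In tertiles of the lower percentile, AP-1 was in 13% of the lowest, 14.7% of the middle and 17.0% of the highest tertile. NFI was in 5.25%, 3.85% and 3.95%, and CTCF in 5.46%, 5.87% and 5.76%. The 224 strongest regions, in the highest decile of both lists, had another make-up: none of them held the CTCF motif (upper Wilson bound 1.69%), against 5.88% of the other 7022. AP-1 was in 21% of the strongest (16.2 to 26.8) and 14.7% of the others, and the SP/KLF site in 4.46% (2.44 to 8.02) and 0.655%. The strongest held 5 or more CpG dinucleotides in 21.4% of cases, against 9.41% of the others. The strongest were selected on score, and these shares are given as a description.

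Some far intergenic regions sat at starts of noncoding genes. In all, 405 regions (5.59%) lay within 2.5 kb of an annotated TSS, against 8.39% of near intergenic regions. Of the 405, 228 lay at long intergenic noncoding RNA genes, 74 at processed pseudogenes and 26 at miRNA genes. Among the 224 strongest regions the share was 10.7% (7.31 to 15.4), against 5.43% of the others. Within 1 kb it was 6.70% and 2.83%. Besides Gm26901, Gm20732 and Trerf1, these strong regions included 1 at 40 bp from the lincRNA gene Gm5444 (scores 142 and 132) and 1 at 115 bp from Gm20756 (146 and 129). At the other extreme, 1273 regions (17.6%) were over 100 kb from every annotated TSS, coding or not.

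A check against RefSeq found 13 far intergenic regions within 1 kb of the start of a RefSeq coding transcript, at 9 genes. Trerf1 had 3 of them and so did Zswim6, whose strongest, at chr13:107890136-107890305, scored 137 and 122. GENCODE M21 classes both genes as processed transcripts. Within 100 kb of a RefSeq coding start there were 225 far intergenic regions (3.11%), and the remaining 7021 had the same median percentile, 48.4. This check was added after the values were seen.

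Several of the regions at miRNA genes belonged to the Mir344 family, a row of related miRNA genes on chromosome 7 beyond the imprinted gene Ndn, which encodes necdin. Of 13 annotated Mir344 genes, 10 had a shared region centred within 500 bp of the start, and 5 had a far intergenic region there. At the other 5 the strongest region was centred inside the long noncoding gene A230057D06Rik or A330076H08Rik that hosts the miRNA gene, so that the rule left it out. At Mir344d-2 the far intergenic region at chr7:61685336-61685505 scored 123 in replicate 1 and 109 in replicate 2, and at Mir344f that at chr7:62046196-62046365 scored 128 and 87. The left-out regions at Mir344, Mir344-2 and Mir344c scored 136 and 115, 133 and 117, and 126 and 111. No peak of either replicate was centred within 500 bp of the starts of Mir344e, Mir344h-1 and Mir344h-2.

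The mature 5p sequences of this family are printed because related copies can share reads. RefSeq (GRCm38.p6) lists these sequences for the genes with a shared region, 5′ to 3′ with the seed, bases 2 to 8, in capitals, and a single mature sequence for Mir344i. The 3p sequences of the same genes, not printed, have 5 different seeds. Of those printed, the first 6 share 1 seed, and the other 3 have seeds of their own.
miR-344-5p: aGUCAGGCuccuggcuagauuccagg
miR-344b-5p: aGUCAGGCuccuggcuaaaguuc
miR-344c-5p: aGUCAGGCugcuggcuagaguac
miR-344d-1-5p: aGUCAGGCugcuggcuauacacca
miR-344g-5p: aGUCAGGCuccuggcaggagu
miR-344d-3-5p: aGUCAGGCuagugguuauacucc
miR-344d-2-5p: aGUCUGGUugcuggcuauauucca
miR-344f-5p: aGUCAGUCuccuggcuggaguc
miR-344i: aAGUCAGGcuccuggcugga

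At Mir344d-1 and Mir344d-3, 36.1% of the 32 bp words in the central window of the region occurred more than once within this cluster. The share was 14.3% at Mir344i, 5.88% at Mir344d-2 and 0 at Mir344g and Mir344f. It was 0.840% at Mir344. The scores at these 5 genes are therefore uncertain, those at Mir344d-1 and Mir344d-3 most, since the files do not say how reads with several matches were placed. The family was singled out after its values were seen.

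Far intergenic regions were unevenly spread over the gene deserts. The autosomes had 1570 stretches farther than 100 kb from any coding TSS, of which 875 held at least 1 far intergenic region and 695 held none. The 111 stretches with most regions held 50% of all 7246. Among 173 stretches with at least 1 Mb of far intergenic sequence the density ranged from 0 to 68.8 per Mb, with a median of 1.3, and 51 of them held none. Repeats and base composition differed with the density: the 13 such stretches above 20 regions per Mb had a median repeat-masked share of 33.9% and GC content of 39.8%, against 43.8% and 37.5% in the 51 without a region. Their part in the spread was not tested.

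The stretch with most regions lay between Zfp608 and Gramd3, with 80 in 1.16 Mb. Next were those between Klf4 and Gm26657 (63 in 0.973 Mb), Gadd45g and Diras2 (63 in 0.441 Mb), Gfra2 and Gm9195 (59), Rps24 and Zmiz1 (55), Cd83 and Jarid2 (54), Zeb2 and Acvr2a (53), Pard3 and Nrp1 (53) and Kcnj2 and Sox9 (52). The desert of Kcnj2 and Sox9 is known for enhancers of Sox9, a factor of cartilage and neural crest development. Its 52 regions lay in 1.47 Mb, and it held 92 peaks of replicate 1 and 67 of replicate 2. Klf4 and Gadd45g, a zinc finger factor and a stress-response gene, likewise border dense stretches, and that beside Gadd45g reached 143 per Mb.

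The longest stretches were mostly sparse, with exceptions. That between Olfm4 and the protocadherin gene Pcdh17 had 4.14 Mb and 1 region, that between Pcdh20 and Pcdh9 4.05 Mb and 2 regions, and that between Cntnap5b and Cdh20 3.9 Mb and 4 regions. In contrast, that between Tenm3 and Aga had 3.44 Mb and 39 regions, or 11.3 per Mb, and that between Zeb2 and Acvr2a 3.01 Mb and 53 regions, or 17.6 per Mb. The longest with none lay between Got2 and the cadherin gene Cdh8, at chr8:95988548-99179472, with 2.91 Mb. The count of 0 there allows a density of up to 1.03 per Mb, and each replicate alone had 4 peaks in it. The next, between Otol1 and Sis, had 2.70 Mb with 3 peaks of replicate 1 and 1 of replicate 2, and that between Epha7, an ephrin receptor gene, and Map3k7 had 2.64 Mb with 2 and 1. None of these 3 stretches without a region held an assembly gap of at least 10 kb.

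Assigned to the nearest coding gene, the regions were concentrated at a part of the genes. Far intergenic sequence lay nearest to 2529 genes, of which 1194 had at least 1 far intergenic region and 241 had 10 or more. The 20 genes with most regions together had 754 (10.4%), and the promoter of 18 of them was open, meaning that at least 1 shared region lay within 1 kb of a TSS. Of all 2529 genes, 1299 had an open promoter, as did 793 of the 1194 with a far intergenic region. Nearness does not show which gene a region acts on.

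The genes with most regions had varied functions. Zfp608, a zinc finger gene, led with 79 regions (90.2 per Mb of far intergenic sequence nearest to it), from 116 peaks in replicate 1 and 104 in replicate 2. Zeb2, which encodes a transcriptional repressor that acts in neural crest and epithelial-to-mesenchymal programs, had 50, the farthest of them 1762456 bp away. Sox9 had 42, Zmiz1 40 and Trps1, a gene for a GATA-type repressor, 39. Zmiz1 encodes a coactivator of the androgen receptor. Cd83, a surface protein of mature dendritic cells, had 38. Med13l, of the Mediator complex, had 37. Rybp, of a Polycomb complex, and Tbl1xr1, of a corepressor complex, had 35 each. Gadd45g, Isl1, Rapgef2 and Sipa1l2 had 34 each, Cited2 and Ttll7, a gene for a tubulin-modifying enzyme, 33 each, Gm26657 and Gm9195 32 each, and Klf4, Myt1l and Trpc7, a cation channel gene, 31 each. Among these 20 genes the density was highest at Sipa1l2, a gene for a regulator of Rap GTPases, at 332 per Mb. Its 34 regions lay in 0.102 Mb of far intergenic sequence nearest to it.

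**Figure D4:**
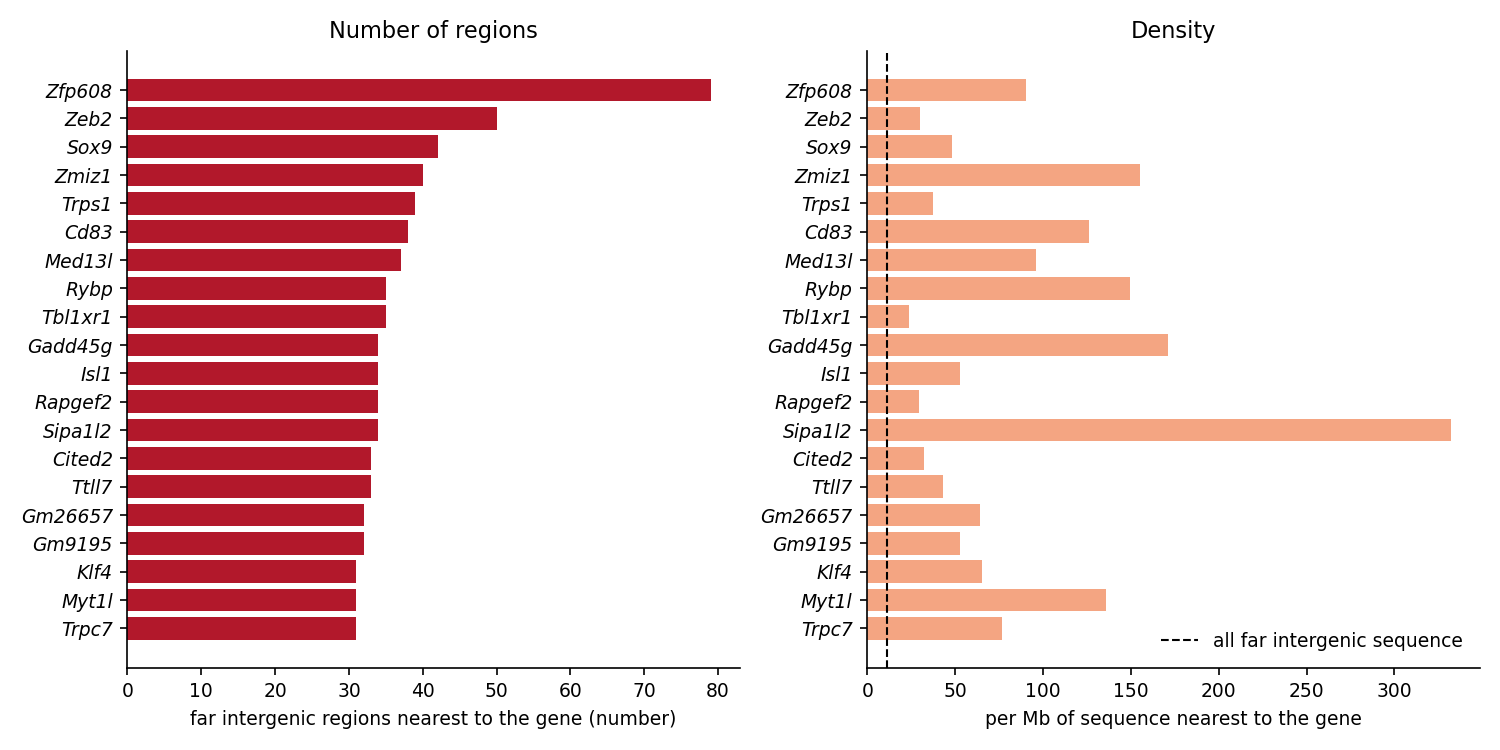
The 20 protein-coding genes nearest to most far intergenic regions, by the number of regions (left) and by their density in the far intergenic sequence nearest to each gene (right), with a dashed line at the 11.4 per Mb of all far intergenic sequence. Zfp608 had 79 regions, and Sipa1l2 had the highest density with 332 per Mb.

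Among genes with at least 1 Mb of far intergenic sequence nearest to them, Trps1 led with 37.6 regions per Mb, followed by Cited2, a partner of the coactivators CBP and p300, with 32.5 and Zeb2 with 30.2. Rapgef2 had 29.2, Tbl1xr1 24.0, Hace1, a ubiquitin ligase gene, 18.9 and Tenm3 18.7. Gm597 had 15.8, Sorcs1 14.1 and 4931408C20Rik 12.6.

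The density was higher in sequence nearest to a gene with an open promoter. Such sequence made up 279 Mb (43.9%) and held 5438 regions (75%, 74.0 to 76.0), or 19.5 per Mb, against 1808 regions in 357 Mb, or 5.07 per Mb, nearest to a gene without one. The ratio was 3.84, and it was 3.46 for the peaks of replicate 1 alone and 3.40 for those of replicate 2 alone. It held within distance classes, with 36.0 against 9.50 per Mb at 100 to 150 kb, 23.1 against 7.13 at 200 to 300 kb, 15.7 against 3.59 at 300 to 500 kb and 6.19 against 2.30 beyond 500 kb. At 100 to 150 kb the median percentile was also higher beside open promoters, 56.9 against 48.9 in replicate 1 and 52.6 against 42.8 in replicate 2. Beyond 500 kb it was not, with 42.7 against 46.2 and 35.3 against 41.4. Both measures come from the same libraries.

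Taken as a whole, the motor neuron and sympathetic list and the Myc and AP-1 list had more regions per Mb than all far intergenic sequence. The lists were chosen with earlier results of these data known. Of 28 motor neuron and sympathetic genes, 11 had far intergenic sequence nearest to them, and this held 108 regions in 3.26 Mb, or 33.1 per Mb against 11.4 overall. Isl1, a homeodomain gene of motor and sensory neurons, had 34, Mycn, a growth regulator amplified in neuroblastoma, 24 and Gata3, a factor of sympathetic neurons and T cells, 23. Isl1, Mycn and Gata3 thus held most of the 108. The promoters of 8 of the 11 genes were open, and sequence nearest to any gene with an open promoter held 19.5 regions per Mb. Of 14 Myc and AP-1 genes, 5 had such sequence, with 58 regions in 1.46 Mb (39.6 per Mb). Mycn, which both lists hold, had 24 of these, Myc 22 and Maf 9. The nearest far intergenic region of Myc was 402159 bp away and the farthest 902559 bp.

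Cadherin, protocadherin and synaptic adhesion genes were at the other end. Of 90 cadherin and protocadherin genes, 24 had far intergenic sequence, which held 50 regions in 34.3 Mb (1.46 per Mb). The promoters of 6 of the 24 were open, against 8 of the 11 in the motor neuron and sympathetic list and 1299 of all 2529 genes. Cdh11 had 20 of the 50 regions. Synaptic adhesion genes had 41 regions in 27.2 Mb (1.51 per Mb), of which Tenm3, a teneurin gene, had 24, Tenm4 4 and Cntnap5b 3. The lists were not compared at equal distance from a TSS. Density fell with distance, from 23.6 per Mb at 100 to 110 kb to 2.18 beyond 1000 kb, and the part of this in the list densities was not tested.

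The other lists lay between or rest on few genes. Developmental regulators with deserts had 297 regions in 21.9 Mb (13.5 per Mb), led by Zeb2, Sox9 and Sox11 with 26, and 31 of the 54 genes with such sequence had at least 1. Axon guidance genes had 134 in 15.0 Mb (8.95 per Mb). Nrp1, a semaphorin receptor, had 27 of them, Slit2, a repellent ligand, 19 and Efna5, an ephrin, 17. NFI, EBF and RFX genes had 10 in 0.787 Mb (12.7 per Mb), 9 of them nearest to Nfib and none nearest to Ebf1. Genes with the prefix Kcn, mostly potassium channels, had 75 in 8.99 Mb (8.35 per Mb), with 21 at Kcnj2. Olfactory, vomeronasal and taste receptor genes had 23 in 2.88 Mb (7.98 per Mb). Muscle genes had 13 in 0.854 Mb (15.2 per Mb), all nearest to Pax3, blood genes 17 in 1.41 Mb (12 per Mb) and hepatocyte genes 3 in 1.46 Mb (2.06 per Mb).

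Regions often lay in clusters. With centres linked at up to 10 kb, the 7246 regions formed 3940 clusters, of which 2407 were single regions (33.2% of all) and 234 had 5 or more, with 1536 regions together. Regions in clusters of 5 or more had a median percentile of 63.2 in replicate 1 and 57.8 in replicate 2, against 40.1 and 35.3 for single regions. The largest clusters had 17 regions each. That at chr8:125330436-125355345, nearest to Sipa1l2, had median percentiles of 82.1 and 83.2. That at chr17:45848716-45893945, between 1600014C23Rik and Vegfa and with regions nearest to either gene, had 81.6 and 79.9. Next were clusters of 16 nearest to Uaca, 15 between Disc1 and Sipa1l2, with regions nearest to either gene, and 14 nearest to Zmiz1. The cluster of 15 and that nearest to Sipa1l2 are neighbours on chromosome 8, between 125271516 and 125355345. Sipa1l2 and Disc1, a gene for a scaffold protein in neurons, thus share 1 dense stretch.

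Some regions coincided with enhancers tested in embryos. The VISTA collection holds elements that drove a reporter gene in transgenic mouse embryos, and RefSeq lists 88 of them at far intergenic positions. A shared region overlapped 21 of these (23.9%, 16.2 to 33.7), a peak of replicate 1 overlapped 24 and a peak of replicate 2 overlapped 25. At near intergenic positions it was 93 of 181 (51.4%, 44.1 to 58.6). The median length was 2079 bp for far intergenic elements and 2344 bp for near intergenic ones. Of the 7246 regions, 35 (0.483%) overlapped a VISTA element, counted over elements at any position. The strongest region is shown for the 2 elements that ranked highest by the lower of both percentiles of score, with an NFI match of 1 mismatch in capitals in the first and none of the 6 motifs in the second.
Region in mm457, chr15:62903166-62903315: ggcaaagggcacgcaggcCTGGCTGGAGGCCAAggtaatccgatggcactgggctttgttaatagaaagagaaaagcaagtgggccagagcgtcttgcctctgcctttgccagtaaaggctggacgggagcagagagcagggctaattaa
Region in mm933, chr13:115687626-115687775: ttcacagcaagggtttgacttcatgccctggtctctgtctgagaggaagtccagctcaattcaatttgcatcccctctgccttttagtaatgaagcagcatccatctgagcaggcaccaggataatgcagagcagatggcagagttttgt

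Element mm457, at chr15:62902694-62903900 in the desert of Myc and Gsdmc, was active in the neural tube, and its strongest region scored 138 and 129. Element mm933, at chr13:115686619-115688040 between Itga1 and Isl1, was active in the dorsal root ganglion, cranial nerve and nose, and its region scored 138 and 123. Element mm1446 near Zmiz1, active in brain, neural tube and eye, had a region of 109 and 102. Others were active outside the nervous system: mm308 in the heart (145 and 122), mm1689 near Hand2 in the limb (71 and 79) and mm636 near Sox9 in the limb, branchial arch and nose (65 and 54). By tissue, a shared region overlapped 6 of 22 far intergenic elements active in forebrain, 8 of 33 in limb, 4 of 13 in heart and 3 of 15 in neural tube. It overlapped 5 of 16 in hindbrain, 4 of 19 in midbrain, 5 of 24 in branchial arch and 5 of 8 in nose, the highest of these shares (62.5%, 30.6 to 86.3). The intervals of these 8 shares overlap one another.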

How the data were processed

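DNase-seq peaks and hotspots of 2 biological replicates were used. Per the listing deposited with each library they were derived from its filtered alignment to mm10 and were not pooled. Neither an aligner nor a peak caller is given in the sources used here. The authors' deposited score of a peak runs from 1 to 150 in whole numbers. No source used here explains it, and it served to rank peaks within a list. For hotspots the authors deposited the −log10 of a q-value, and the hotspots' positions alone were used. Sequencing depth is unknown.

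Repeated peaks were counted once and peaks of both lists overlapping by at least 1 bp were merged. A percentile is the share of a replicate's peaks with a lower score, ties counted in part. A region's distance runs from its centre to the nearest start of any transcript of a protein-coding gene of GENCODE M21. Densities use sequence outside genes and outside assembly gaps of at least 10 kb. Motifs were sought in 150 bp around the centre and 1 kb downstream, in the RefSeq copy of GRCm38.p6, whose lower-case letters gave the repeat mask. The overlap and merging of peaks, the motif search and the position rule were tested on simulated data, and the other steps were not.

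With 1 group of 2 there was no test, and shares have 95% Wilson intervals. The members, the 12 gene lists, the motifs and the alternatives were chosen with earlier results of these data known. The regions named were the 12 highest, the 5 farthest and the 5 largest clusters. For each of 6 motifs, the region with fewest mismatches and then the highest lower percentile was added. The genes were the nearest to all of these, the 20 with most members, up to 3 a list and the 10 densest with at least 1 Mb. The Mir344 family, exact AREs, RefSeq starts, VISTA elements, stretches and chromosomes named were chosen after their values were seen. Calculations used Python 3.11.15, numpy 2.4.6, pandas 2.3.3 and scipy 1.17.1.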

Additional observations from a re-analysis of the deposited data

Results flagged for a closer look

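The X chromosome was left out by the rule for the far intergenic regions, yet it held 231 shared regions that meet the same position rule, in 55.1 Mb of sequence. That is 4.19 per Mb, against 11.4 per Mb on the autosomes. Replicate 1 alone had 415 peaks there and replicate 2 alone had 387, and the median scores of the shared regions were 44 and 41. There were no control samples, and the labels give neither the sex of the cells nor their number of X chromosomes. The Y chromosome held 6 such regions in 56.3 Mb, with median scores of 14 and 14.5.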

How the results depend on the processing

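No paired analysis was possible because the study has 1 group. The number of far intergenic regions, 7246, was 12523 at a distance limit of 50 kb, 3611 at 200 kb, 1273 when the limit applied to the TSS of any gene and 2774 from the stronger 50% of each list, and it was 10858 to 13003 from the peaks of a single replicate. The density ratio, 0.233, was 0.287 at 50 kb, 0.188 at 200 kb, 0.157 with the TSS of any gene, 0.165 with the stronger 50%, 0.215 with assembly gaps kept and 0.255 with near sequence from 10 kb, and 0.261 to 0.283 from a single replicate; it stayed below 1 in all of these. The median percentile, 48.4, was 74.3 and the share found in the other replicate, 63.0%, was 75% with the stronger 50%, a setting that by construction removes the lower scores. Every other setting moved the last 2 values by less than 1 SD between replicates. The count of motifs at least 2 times as frequent as in flanks, 11, ranged from 9 to 12. With 1 mismatch fewer the shares were 0.925% for CTCF, 0.276% for NFI, 0.359% for RFX and 0.80% for the ARE. The unknown depth limits what an absent peak shows.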

Other observations

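The peak lists differed strongly around a few genes. Among 110 genes with at least 50 far intergenic peaks nearest to them, counted over both lists, the ratio of the peak number of replicate 2 to that of replicate 1 had a median of 0.789, and it exceeded 1 at 18 genes. It was 4.93 at Etaa1, where replicate 2 had 74 peaks, replicate 1 had 15, and 6 shared regions resulted. It was 3.22 at Kcna4 (74 and 23 peaks, 11 shared regions), 2.59 at Zfp386 (44 and 17) and 1.72 at Cdh11 (91 and 53). The lowest ratio was 0.451 at Gm597, with 37 and 82 peaks. Counted by stretch, that between Pcmtd1 and Sntg1 had 4 peaks of replicate 1, 43 of replicate 2 and 2 shared regions. These genes and this stretch were named after their values were seen, and the cause was not tested.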
